A study of Mus musculus with 13 samples.

Results

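The genes described here encode the enzymes that hydroxylate procollagen chains and start their covalent cross-linking. They are the lysyl oxidase Lox and its relatives Loxl1, Loxl2, Loxl3 and Loxl4, the lysyl hydroxylases Plod1, Plod2 and Plod3, and the prolyl 4-hydroxylase alpha subunits P4ha1 and P4ha2. They were chosen by gene symbol, which found all 10 among the 24495 genes of the table, and all 10 passed the filter on low counts. RNA was sequenced from mouse embryonic fibroblasts (MEFs) isolated at embryonic day 12.5, labelled with the V6.5 129XBI/6 background. All groups are labelled Tet2-/-, Tet2 being the gene of an enzyme that oxidises 5-methylcytosine in DNA, and all carry doxycycline-inducible reprogramming factors (OKSM, which stands for Oct4, Klf4, Sox2 and Myc) with the rtTA activator.

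Cells of 3 groups were taken at day 5 of reprogramming to pluripotency after infection with a pMXs retrovirus. The virus carried wild-type Tet2 (Tet2-WT, 3 libraries), a mutant that the series text calls stalling (Tet2-E, 4 libraries), or no insert (pMXs, 3 libraries). These cultures grew on Mito-C-treated feeder MEFs with LIF, 1 µM PD0325901 (an ERK pathway inhibitor), 3 µM CHIR99021 (a GSK3 inhibitor) and 2 µg/mL doxycycline. Untreated MEFs (Untreated, 3 libraries) were not reprogrammed, and the labels do not settle whether they carry the empty vector. All cultures were kept in 5% oxygen. The labels name no sort and no removal of feeders, so a day 5 value is read as that of the whole culture. Replicates are numbered 1, 2, 100 and 250 and are not stated to be separate cultures, so a p-value measures the spread between these libraries, which may be technical.

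Collagen chains are modified in the endoplasmic reticulum before they fold into a triple helix. Prolyl 4-hydroxylase, built of alpha subunits and the beta subunit P4hb, makes the 4-hydroxyproline that keeps the helix stable. Lysyl hydroxylases act on lysines of the helix or of its non-helical ends (telopeptides), and the lysyl oxidases, copper enzymes that work outside the cell, turn lysine and hydroxylysine side chains into the aldehydes from which cross-links form. Both hydroxylase families need iron, oxygen, 2-oxoglutarate and ascorbate, as the TET enzymes do, and fibroblasts are known for high output of collagen and of these enzymes.

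Counts per library ran from 14052646 to 26265382. Levels are in CPM, the counts of a gene scaled to a common library size. A gene rose or fell, in the words used here, where the Benjamini-Hochberg adjusted p of edgeR's quasi-likelihood test was under 0.05 over 14607 genes. Tet2 had 1243, 1176 and 1233 CPM in Tet2-WT libraries, 581 to 1403 CPM in Tet2-E libraries, 39.1 to 58.8 CPM in pMXs libraries and 37.8 to 48.3 CPM in Untreated libraries. The pMXs and Untreated libraries held 601 to 1022 Tet2 reads each, so some Tet2 RNA was counted in cells labelled Tet2-/-, and which part of the gene is deleted is not given in the labels. Tet2 was far above its level in pMXs in all libraries that received a Tet2 insert, and the lowest of them was Tet2-E replicate 100.

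Lox was the most abundant of the 5 lysyl oxidase genes in every group when levels were set per kilobase of exon. Lox averaged 432 ± 55.4 CPM per kb in Tet2-WT, 630 ± 155 in Tet2-E, 591 ± 45.2 in pMXs and 1189 ± 191 in Untreated (SD, n = 3, 4, 3 and 3). As a share of the family's summed CPM per kb, Lox made up 75.3% in Tet2-WT, 79.1% in Tet2-E, 78.2% in pMXs and 76.1% in Untreated. Loxl2, which is known to cross-link collagen IV, was next in the day 5 groups, at 64.9 ± 6.61 CPM per kb in Tet2-WT, 83.7 ± 11.6 in Tet2-E and 81.2 ± 6.44 in pMXs. In Untreated, Loxl1 at 129 to 167 CPM per kb and Loxl2 at 117 to 135 CPM per kb were neighbours whose ranges overlapped. Exon lengths came from the GRCm38 annotation while the authors counted on mm9, so levels per kb are approximate.

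Among the lysyl hydroxylases the order of Plod2 and Plod3 differed between groups. Plod2, the hydroxylase of telopeptide lysines, averaged 81.4 ± 4.55 CPM per kb in Tet2-WT, 78.6 ± 10.7 in Tet2-E, 69.9 ± 8.05 in pMXs and 59.9 ± 8.49 in Untreated. Plod3, which also adds sugars to hydroxylysine, ran from 57.1 to 59.6 CPM per kb in Tet2-WT, 58.9 to 64.0 in Tet2-E, 58.5 to 62.6 in pMXs and 82.1 to 97.6 in Untreated. Plod2 was thus the higher of this pair in every Tet2-WT and Tet2-E library and Plod3 in every Untreated library, while their ranges met in pMXs. Plod1, which hydroxylates lysines of the helix, was the lowest of the family in each group. P4ha1, the most widely expressed alpha subunit, lay above P4ha2 in every group, with 64.5% of their summed CPM per kb in Tet2-WT, 60.4% in Tet2-E, 58.6% in pMXs and 60.2% in Untreated.

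**Figure D1:**
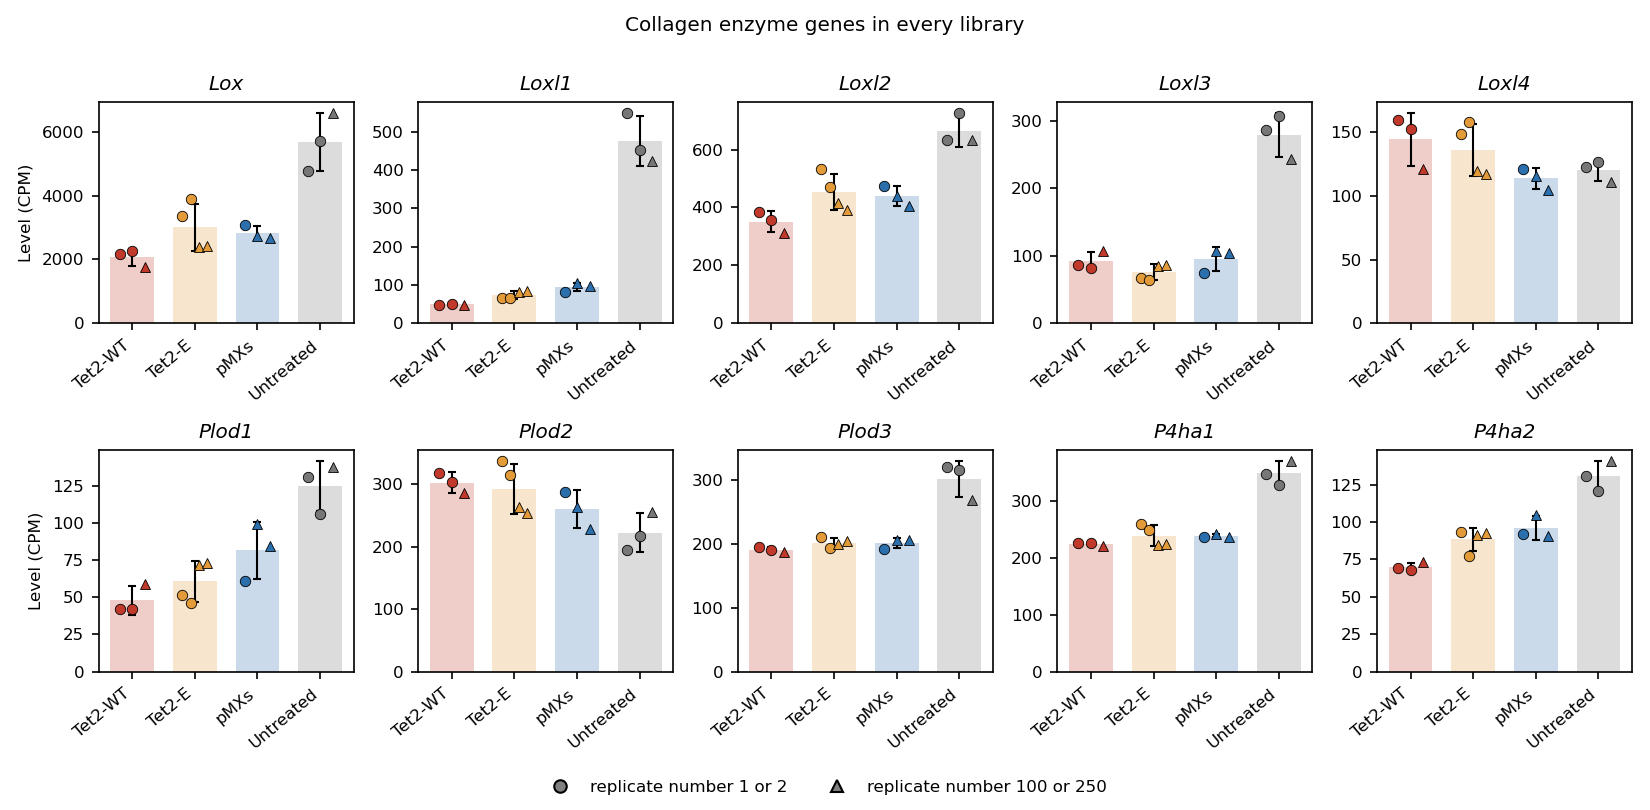
Level in CPM of each of the 10 genes in the 13 libraries, by group, on a separate scale for each gene starting at 0. Bars are group means with SD (n = 3 for Tet2-WT, pMXs and Untreated, n = 4 for Tet2-E); circles are replicates 1 and 2, triangles replicates 100 and 250. Loxl1 averaged 49.4 CPM in Tet2-WT, 75.0 in Tet2-E, 95.1 in pMXs and 476 in Untreated, while Loxl4 averaged 114 to 145 CPM in all 4 groups.

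Day 5 cells with the empty vector had less RNA of most of these enzymes than Untreated MEFs. Of the 10 genes, 8 fell and none rose, in a comparison in which 70.1% of all tested genes were called and 35.0% fell. The median log2 fold change was -0.59, against -0.0013 over all tested genes. The groups did not overlap for 8 of the 10 genes, against 72.0% of all tested genes. These groups differ in the reprogramming factors, the medium and the feeder cells together, and may also differ in the virus. The parts of these cannot be told apart. Fewer cells of a type and less RNA per cell cannot be told apart either in these bulk cultures.

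The lysyl oxidases spanned the widest range in that comparison. Loxl1, known for its part in elastic fibre upkeep, had 82.7, 105 and 97.7 CPM in pMXs replicates 2, 100 and 250, against 550, 453 and 425 CPM in Untreated replicates 1, 2 and 100. Every pMXs library lay far below every Untreated library, and the log2 fold change was -2.32 ± 0.12 (SE, adjusted p = 2.8e-10, edgeR), or 5.0-fold lower in pMXs. Loxl3, which mice need for palate and spine development, had 75.4, 108 and 104 CPM in pMXs, against 287, 308 and 244 CPM in Untreated, and fell by 1.55 ± 0.15 on the log2 scale (adjusted p = 4.45e-07, edgeR). Its groups were also fully apart. Lox had 3070, 2736 and 2666 CPM in pMXs, against 4754, 5712 and 6574 CPM in Untreated, a log2 fold change of -1.01 ± 0.18 (adjusted p = 0.000122, edgeR).

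Loxl2 had 473, 440 and 404 CPM in pMXs, against 633, 727 and 633 CPM in Untreated, and fell by 0.60 ± 0.11 on the log2 scale (adjusted p = 0.000214, edgeR). Loxl4 stood apart from its relatives. It had 121, 116 and 105 CPM in pMXs, against 123, 127 and 111 CPM in Untreated, with overlapping groups and a log2 fold change of -0.08 (95% interval -0.34 to 0.19, adjusted p = 0.593, edgeR). Loxl4 made up 4.04% of the family's summed CPM per kb in pMXs, against 2.09% in Untreated. Loxl1 made up 3.84% in pMXs, against 9.44% in Untreated.

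Among the hydroxylases, 4 of 5 fell. The log2 fold changes of Plod3, P4ha1 and P4ha2 between pMXs and Untreated were -0.59 ± 0.07, -0.55 ± 0.07 and -0.45 ± 0.09 (edgeR adjusted p = 3.3e-06, 8.15e-06 and 0.000316). Plod3 averaged 201 ± 7.69 CPM in pMXs and 301 ± 28.0 CPM in Untreated, and P4ha1 averaged 239 ± 2.76 CPM in pMXs and 348 ± 21.3 CPM in Untreated (SD, n = 3 each). Neither gene's groups overlapped. Plod1 had 60.9, 99.1 and 84.7 CPM in pMXs, against 131, 106 and 138 CPM in Untreated, and its log2 fold change was -0.61 ± 0.21 (adjusted p = 0.0179, edgeR). That call was lost without Untreated replicate 1 (adjusted p = 0.058), without Untreated replicate 100 (0.0783) and without pMXs replicate 2 (0.0699).

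Plod2 was the one gene of the 10 with a higher mean in pMXs. It had 288, 263 and 228 CPM in pMXs, against 194, 217 and 256 CPM in Untreated, and the groups overlapped. Its log2 fold change was 0.22 (95% interval -0.04 to 0.48, adjusted p = 0.115, edgeR). It passed the test without Untreated replicate 100 (log2 fold change 0.33, adjusted p = 0.0244) and within replicates 1 and 2 (0.49, adjusted p = 0.000453), while within replicates 100 and 250 it was at -0.06 (adjusted p = 0.614). The ratio of Plod2 to Plod1 in CPM per kb ran from 2.58 to 4.59 in pMXs libraries, against 1.44 to 1.98 in Untreated libraries.

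**Figure D2:**
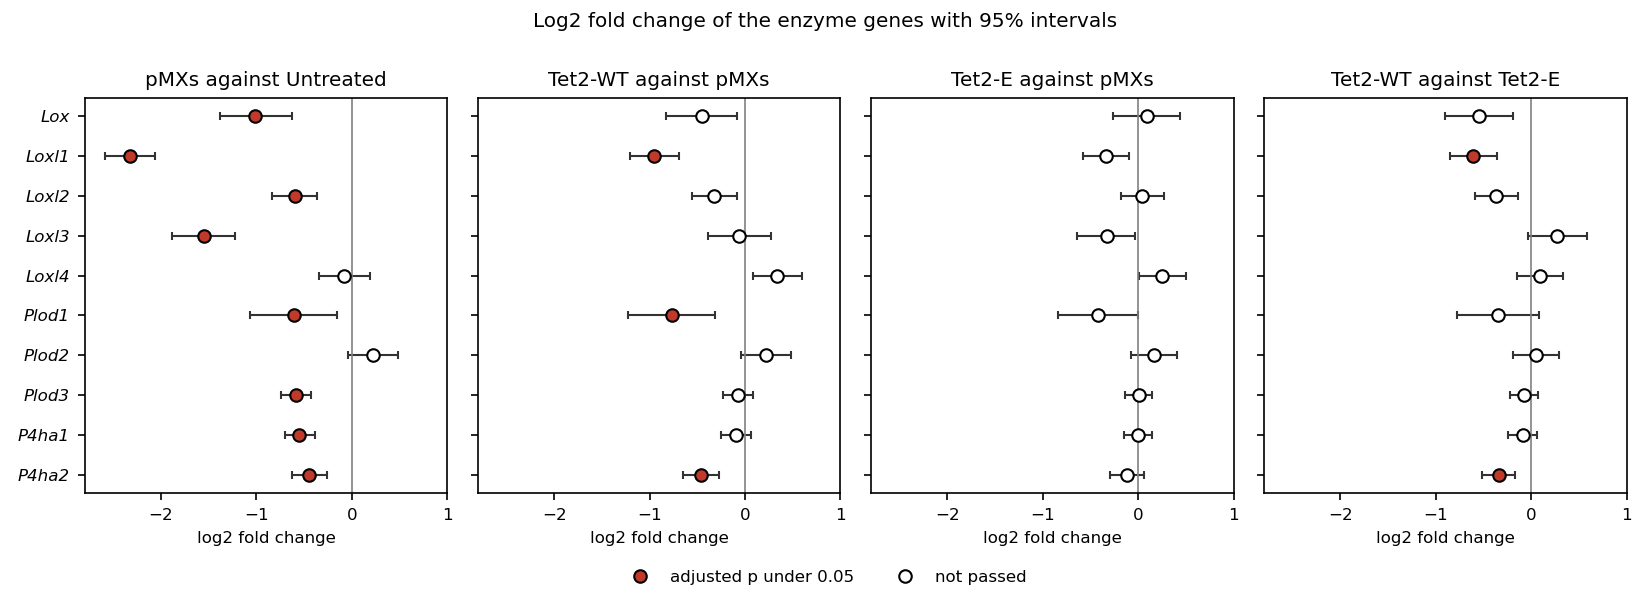
Log2 fold change of each of the 10 genes with its 95% interval in the 4 comparisons, from 1 edgeR fit of all 13 libraries; filled points passed an adjusted p of 0.05 and the vertical line is no difference. In pMXs against Untreated 8 genes fell, in Tet2-WT against pMXs 3, in Tet2-WT against Tet2-E 2, and in Tet2-E against pMXs no gene passed.

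Among the 10 genes, 1 of each enzyme family fell with Tet2-WT in place of the empty vector. P4ha3, an alpha subunit gene outside the 10, fell too. Of the 10 genes, Loxl1, Plod1 and P4ha2 fell and none rose, where 12.5% of all tested genes were called and 6.52% fell. The median log2 fold change was -0.21, against -0.0037 over all tested genes. The groups did not overlap for 7 of the 10 genes, against 34.6% of all tested genes, and 6 of the 10 had an unadjusted p under 0.05, against 25.2%.

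Loxl1 had 49.3, 50.2 and 48.7 CPM in Tet2-WT replicates 1, 2 and 250, against 82.7, 105 and 97.7 CPM in pMXs replicates 2, 100 and 250. The Tet2-WT libraries lay close together and below every pMXs library. The log2 fold change was -0.95 ± 0.12 (adjusted p = 0.000134, edgeR), or 1.93-fold lower in Tet2-WT. P4ha2 had 69.3, 67.7 and 73.0 CPM in Tet2-WT, against 92.0, 105 and 90.8 CPM in pMXs, a log2 fold change of -0.46 ± 0.09 (adjusted p = 0.00292, edgeR). Its groups were apart as well, while its partner gene P4ha1 averaged 224 ± 3.49 CPM in Tet2-WT and 239 ± 2.76 CPM in pMXs (SD, n = 3 each), a log2 fold change of -0.09 (95% interval -0.25 to 0.06, adjusted p = 0.494, edgeR). The calls of Loxl1 and P4ha2 held in every alternative run, each left-out library included.

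Plod1 had 42.2, 42.4 and 58.9 CPM in Tet2-WT replicates 1, 2 and 250, against 60.9, 99.1 and 84.7 CPM in pMXs replicates 2, 100 and 250. The highest Tet2-WT value lay just under the lowest pMXs value. The log2 fold change was -0.77 ± 0.21 (adjusted p = 0.0298, edgeR). The call was lost without Tet2-WT replicate 1 (adjusted p = 0.117), Tet2-WT replicate 2 (0.117), pMXs replicate 100 (0.126) or pMXs replicate 250 (0.0902). Plod2 averaged 302 ± 16.9 CPM in Tet2-WT and 259 ± 29.9 CPM in pMXs (SD, n = 3 each), a log2 fold change of 0.22 (95% interval -0.04 to 0.48, adjusted p = 0.284, edgeR), and Plod3 averaged 191 ± 4.13 CPM in Tet2-WT and 201 ± 7.69 CPM in pMXs, a log2 fold change of -0.07 (adjusted p = 0.597, edgeR). The ratio of Plod2 to Plod1 in CPM per kb ran from 4.69 to 7.33 in Tet2-WT libraries, against 2.58 to 4.59 in pMXs libraries.

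Of the 3 genes called between Tet2-WT and pMXs, Plod1 and P4ha2 have an entry in the RefSeq promoter table of GRCm38.p6. The 250 bases before their starts are shown on the gene's strand. That of Plod1 lies at chr4:147936777-147937026 on the minus strand and that of P4ha2 at chr11:54100674-54100923 on the plus strand. Capitals mark ACGTG and GCGTG, read on both strands (CACGT and CACGC on the other strand). Both are forms of the core of the hypoxia-inducible factor motif, and GCGTG is also the core of the dioxin receptor motif.
Plod1: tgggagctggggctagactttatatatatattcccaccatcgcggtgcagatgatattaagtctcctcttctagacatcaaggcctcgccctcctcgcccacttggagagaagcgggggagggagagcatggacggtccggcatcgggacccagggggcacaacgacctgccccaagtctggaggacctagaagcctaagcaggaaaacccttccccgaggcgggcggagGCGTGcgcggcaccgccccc
P4ha2: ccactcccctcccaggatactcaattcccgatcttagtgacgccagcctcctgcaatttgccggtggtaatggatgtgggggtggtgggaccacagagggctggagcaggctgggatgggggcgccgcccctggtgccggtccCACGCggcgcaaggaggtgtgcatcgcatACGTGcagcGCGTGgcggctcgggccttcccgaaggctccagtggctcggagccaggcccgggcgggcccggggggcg
The Plod1 stretch holds 16 CG dinucleotides, the bases at which TET enzymes act on methylated cytosine, with no ACGTG and 1 GCGTG, and 74.6% of 32851 promoters of the same length hold fewer CG. The P4ha2 stretch holds 21 CG dinucleotides, 1 ACGTG and 2 GCGTG, and 83.7% of promoters hold fewer CG. The table also holds Plod3, P4ha1 and Loxl4, which were not called between Tet2-WT and pMXs. They hold 17, 24 and 27 CG dinucleotides, with 1 ACGTG in Plod3 and P4ha1 and none in Loxl4, and with 3, 2 and 1 GCGTG. Loxl1, the called gene without an entry, could not be counted, and a link between these counts and the calls was not tested. Among all promoters of that length, 16.6% hold an ACGTG and 28.2% a GCGTG. These are matches of letters only; no methylation or binding was measured here.

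Lox, Loxl2 and Loxl4 missed the threshold between Tet2-WT and pMXs although their groups did not overlap. Lox had 2162, 2263 and 1762 CPM in Tet2-WT, against 3070, 2736 and 2666 CPM in pMXs, a log2 fold change of -0.45 (95% interval -0.83 to -0.08, adjusted p = 0.111, edgeR). Loxl2 had 383, 358 and 312 CPM in Tet2-WT, against 473, 440 and 404 CPM in pMXs, a log2 fold change of -0.32 ± 0.11 (adjusted p = 0.0754, edgeR). Loxl4, a secreted relative of Loxl2 with the same scavenger receptor domains, had a higher mean in Tet2-WT. It had 160, 153 and 121 CPM in Tet2-WT, against 121, 116 and 105 CPM in pMXs, a log2 fold change of 0.34 (95% interval 0.08 to 0.60, adjusted p = 0.0849, edgeR), and the lowest Tet2-WT value lay at the highest pMXs value. Loxl3 averaged 92.0 ± 13.3 CPM in Tet2-WT and 95.7 ± 17.7 CPM in pMXs (SD, n = 3 each), a log2 fold change of -0.06 (95% interval -0.39 to 0.27, adjusted p = 0.86, edgeR).

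The replicate numbers moved with several of these genes in the day 5 groups. Replicates 1 and 2 lay above replicates 100 and 250 in Tet2-WT, Tet2-E and pMXs alike for Lox, Loxl2, Loxl4 and Plod2, and below them for Loxl3 and Plod1. Plod1, for example, averaged 42.3 CPM in replicates 1 and 2 and 58.9 CPM in replicate 250 of Tet2-WT, against 60.9 CPM in replicate 2 and 91.9 CPM in replicates 100 and 250 of pMXs. Tet2-WT holds 2 libraries numbered 1 or 2 and 1 numbered 250, while pMXs holds 1 and 2 of them, so the groups are not balanced for it. Per the labels the sequencing libraries came from 2 rounds of preparation, whose members are not named, so what the numbers stand for is not known.

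Among the 10 genes, allowing for the replicate numbers widened the set of calls between Tet2-WT and pMXs. With the replicate number as a block, 5 of the 10 genes passed. Of all 14607 tested genes, 1904 were called with the block, against 1830 without it. The 5 were Loxl1, Plod1 and P4ha2 as above, Loxl2 with a log2 fold change of -0.39 and Loxl4 with 0.26 (edgeR adjusted p = 0.00758 and 0.0403 for the last 2). Within replicates 1 and 2 alone, the log2 fold changes were -0.47 for Lox, -0.35 for Loxl2, 0.37 for Loxl4 and -0.52 for Plod1 (edgeR adjusted p = 0.00822, 0.0447, 0.0192 and 0.0137). Within replicates 100 and 250 alone they were -0.62 for Lox, -0.44 for Loxl2 and -0.64 for Plod1 (edgeR adjusted p = 0.00145, 0.0158 and 0.00293), while Loxl4 at 0.13 did not pass (adjusted p = 0.488). These within-number comparisons stay within the numbers 1 and 2 or 100 and 250 and do not match single numbers. Each has 1 library on one side, whose spread is taken to be that of the other groups. Over all tested genes, both gave fewer calls than the fit without replicate numbers.

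Between Tet2-E and the empty vector 0 of the 10 genes passed edgeR's test, and 0 passed that of DESeq2. In this comparison 0.0479% of all tested genes were called by edgeR. An unadjusted p under 0.05 was found for 3 of the 10 genes, Loxl1, Loxl3 and Loxl4, and for 9.33% of all tested genes. The groups overlapped for all 10, and 10.2% of all tested genes did not overlap. The median log2 fold change was 0.002, against -6.5e-05 over all tested genes.

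Loxl1 again had the smallest p of the 10. It had 67.5, 65.1, 82.2 and 85.4 CPM in Tet2-E replicates 1, 2, 100 and 250, against 82.7, 105 and 97.7 CPM in pMXs, and only Tet2-E replicate 250 lay above the lowest pMXs library. Its log2 fold change was -0.34 (95% interval -0.58 to -0.10, adjusted p = 0.316, edgeR). Loxl3 averaged 75.9 ± 11.8 CPM in Tet2-E (n = 4) and 95.7 ± 17.7 CPM in pMXs (n = 3), a log2 fold change of -0.33 (95% interval -0.64 to -0.03, adjusted p = 0.49, edgeR). P4ha1 averaged 238 ± 18.9 CPM in Tet2-E and 239 ± 2.76 CPM in pMXs, and the interval of its log2 fold change ran from -0.15 to 0.15. Lox varied widely, with 3349 and 3893 CPM in Tet2-E replicates 1 and 2 and 2379 and 2421 CPM in replicates 100 and 250, against 3070, 2736 and 2666 CPM in pMXs. The pMXs values lay between the Tet2-E pairs, and the interval ran from -0.26 to 0.44.

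Set against Tet2-E directly, Tet2-WT had lower Loxl1 and P4ha2. These 2 of the 10 genes fell and none rose, where 4.62% of all tested genes were called and 2.19% fell. The median log2 fold change was -0.22, against -0.0051 over all tested genes. Loxl1 had 49.3, 50.2 and 48.7 CPM in Tet2-WT, against 67.5, 65.1, 82.2 and 85.4 CPM in Tet2-E, with no overlap and a log2 fold change of -0.61 ± 0.11 (adjusted p = 0.00575, edgeR). This call held in every alternative run. The comparison shares the Tet2-WT libraries with that against pMXs.

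P4ha2 had 69.3, 67.7 and 73.0 CPM in Tet2-WT, against 93.4, 77.1, 91.2 and 92.9 CPM in Tet2-E, also without overlap, and a log2 fold change of -0.34 ± 0.08 (adjusted p = 0.0257, edgeR). Its call was less firm. It was lost without Tet2-WT replicate 1 (adjusted p = 0.116) or 2 (0.137), without Tet2-E replicate 1 (0.0702), 100 (0.0729) or 250 (0.0768), and in the within-number comparisons (0.0556 within replicates 1 and 2, 0.165 within replicates 100 and 250). Plod1, which fell against pMXs, averaged 47.9 ± 9.60 CPM in Tet2-WT (n = 3) and 60.7 ± 13.8 CPM in Tet2-E (n = 4), a log2 fold change of -0.35 ± 0.20 (adjusted p = 0.463, edgeR).

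Lox and Loxl2 had groups that did not overlap between Tet2-WT and Tet2-E but missed the threshold. With Loxl1 and P4ha2 they made 4 of the 10 genes without overlap, against 15.0% of all tested genes. The log2 fold change of Lox was -0.55 ± 0.16 (adjusted p = 0.0816, edgeR) and that of Loxl2 was -0.37 ± 0.11 (adjusted p = 0.0646, edgeR). Lox had 2162 and 2263 CPM in Tet2-WT replicates 1 and 2, against 3349 and 3893 CPM in the Tet2-E libraries of those numbers, and 1762 CPM in Tet2-WT replicate 250, against 2421 CPM in Tet2-E replicate 250. With the replicate number as a block, both genes passed (adjusted p = 0.0346 for Lox and 0.00781 for Loxl2). Lox also passed without Tet2-E replicate 100 (0.0424) or 250 (0.048), and Loxl2 without Tet2-E replicate 250 (0.0382).

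The genes did not move as 1 block among the 10 day 5 libraries. Over the 45 pairs of genes, Pearson's r of log2 CPM had a median of 0.26, ran from -0.90 to 0.92, and was negative in 15 pairs. These libraries share the day 5 condition and their replicate numbers but come from Tet2-WT, Tet2-E and pMXs. Group means were not removed, so r mixes differences between groups with those between replicates. The values are a description with no test. Loxl1 and P4ha2, with r = 0.92, and Loxl1 and Plod1, with r = 0.87, were alike. So were Lox and Loxl2 (0.90), Lox and P4ha1 (0.87), and Loxl2 and P4ha1 (0.86). Loxl4 was like Plod2 (0.90) and ran against Plod1 (-0.90), and Plod1 ran against Plod2 (-0.84). With the Untreated libraries added the median over pairs was 0.78, and 16 pairs were negative.

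**Figure D3:**
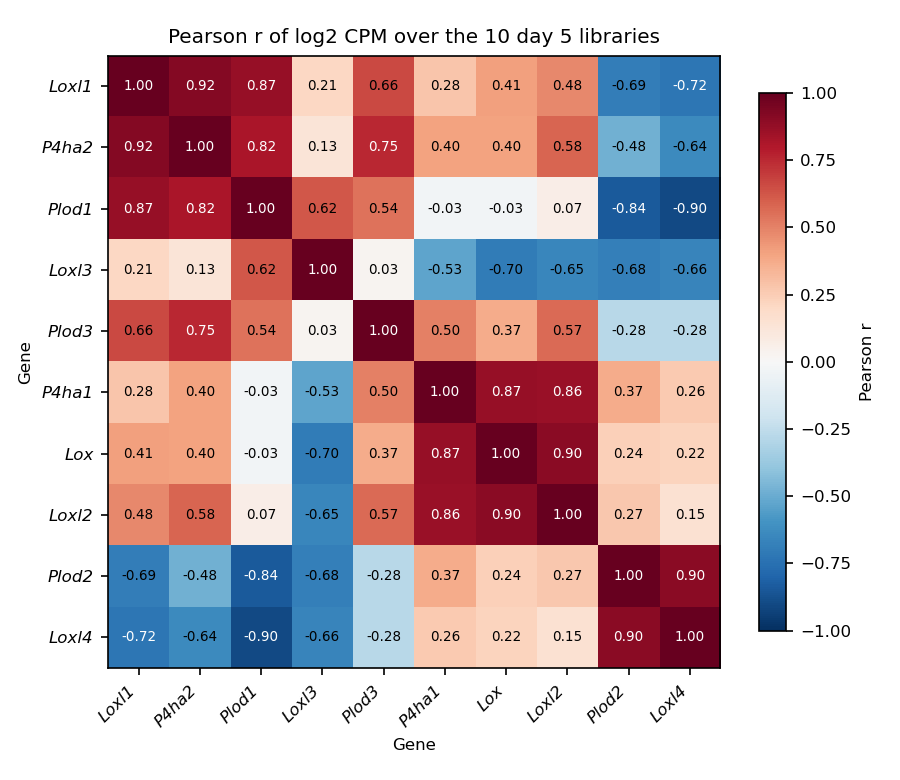
Pearson's r of log2 CPM between each pair of the 10 genes over the 10 day 5 libraries, from blue (negative) to red (positive). Lox, Loxl2 and P4ha1 form one red block and Loxl1, P4ha2 and Plod1 another, while Loxl4 and Plod2 run against Plod1, with r of -0.90 and -0.84.

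Outside the family, the tested genes whose day 5 pattern was most like that of each enzyme had r of 0.929 or above over the 10 libraries. For Loxl1 these were Cd248, a surface protein of fibroblasts and pericytes (0.983), and Scarf2 (0.982), and Cd248 was also the closest to P4ha2 (0.967), followed by Gramd4 (0.962). For Lox they were Ntf3, a neurotrophin (0.982), and Wisp1, a secreted matricellular protein (0.978), and for Loxl2 they were Efnb2, an ephrin (0.968), and Pde10a (0.964). For Loxl4 they were Vopp1 (0.974) and Tspan2 (0.973), for Plod1 Kctd20 (0.976) and Arhgap20 (0.973), and for Plod2 Acpp (0.963) and Snx18 (0.96). With 10 libraries and 14607 genes, high values of r are easily found.

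Other genes of the pathway are counted by list, and each count can be set beside the shares over all tested genes. In pMXs against Untreated 70.1% of these were called and 35.0% fell, in Tet2-WT against pMXs 12.5% were called and 6.52% fell, and in Tet2-WT against Tet2-E 4.62% were called and 2.19% fell. The other collagen hydroxylation and glycosylation genes, which include P4ha3, the prolyl 3-hydroxylases and the galactosyltransferases, numbered 9. Of these, 8 fell and 1 rose in pMXs against Untreated, with a median log2 fold change of -0.70. The log2 fold changes were -1.53 for P3h3, -1.81 for P3h2 and -0.85 for Crtap, a partner of prolyl 3-hydroxylase (edgeR adjusted p = 9.51e-09, 3.69e-07 and 1.77e-07). Colgalt2, a collagen galactosyltransferase gene, rose and averaged 2.66 CPM in pMXs and 0.0631 CPM in Untreated. In Tet2-WT against pMXs 2 of the 9 fell and 1 rose. P4ha3, the alpha subunit gene not among the 10, averaged 32.7 CPM in Tet2-WT and 55.7 CPM in pMXs, a log2 fold change of -0.77 ± 0.12 (adjusted p = 0.000635, edgeR), and P3h3 fell by 0.52 (adjusted p = 0.00642, edgeR). P4ha3 was also lower in Tet2-WT than in Tet2-E (log2 fold change -0.55, adjusted p = 0.0104, edgeR).

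The enzymes' substrates and partners were described by lists of the same kind. Of 11 fibrillar collagen genes, 7 fell in Tet2-WT against pMXs, with a median log2 fold change of -0.93, and 6 fell in Tet2-WT against Tet2-E, with a median of -0.60. In Tet2-WT against pMXs the log2 fold changes were -1.07 for Col5a1, a chain of collagen V, -1.65 for Col11a1 and -1.12 for Col3a1 (edgeR adjusted p = 9.56e-07, 3.99e-06 and 7.71e-06). In pMXs against Untreated 8 of the 11 fell and 1 rose, with a median of -1.17. Of 12 elastic fibre genes, whose products include substrates of Lox and Loxl1, all 12 fell in pMXs against Untreated (median log2 fold change -2.07) and 8 fell in Tet2-WT against pMXs (median -0.54). The log2 fold changes there were -2.15 for Mfap2, a microfibril protein, -1.65 for Mfap4 and -2.24 for the fibrillin gene Fbn2 (edgeR adjusted p = 2.2e-05, 4.7e-06 and 8.61e-05).

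Of 12 procollagen chaperone, export and uptake genes, 10 fell in pMXs against Untreated, and 4 fell in Tet2-WT against pMXs. In Tet2-WT against pMXs the log2 fold changes were -0.86 for Mrc2, an endocytic collagen receptor, -0.51 for Sec24d, a coat protein of procollagen export, and -0.66 for the transcription factor gene Creb3l1 (edgeR adjusted p = 2.97e-05, 0.000335 and 0.00398). Of 8 tested procollagen processing genes, 6 fell and 1 rose in pMXs against Untreated, and 2 fell and 1 rose in Tet2-WT against pMXs. The gene that rose was Pcolce2, an enhancer of C-propeptide cleavage, with a log2 fold change of 2.63 in pMXs against Untreated and 0.71 in Tet2-WT against pMXs (edgeR adjusted p = 3.08e-09 and 0.00462). No gene of these lists passed in Tet2-E against pMXs, where 0.0479% of all tested genes were called. With the replicate number as a block, Col3a1 (log2 fold change -0.51), Col11a1 (-0.58), Mfap2 (-0.89), Fbn2 (-0.84) and Pcolce2 (0.33) passed there (edgeR adjusted p = 0.0239, 0.0205, 0.0101, 0.0319 and 0.0432). Without Tet2-E replicate 100, Col3a1 (adjusted p = 0.0415), Col11a1 (0.036) and Fbn2 (0.0162) passed.

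**Figure D4:**
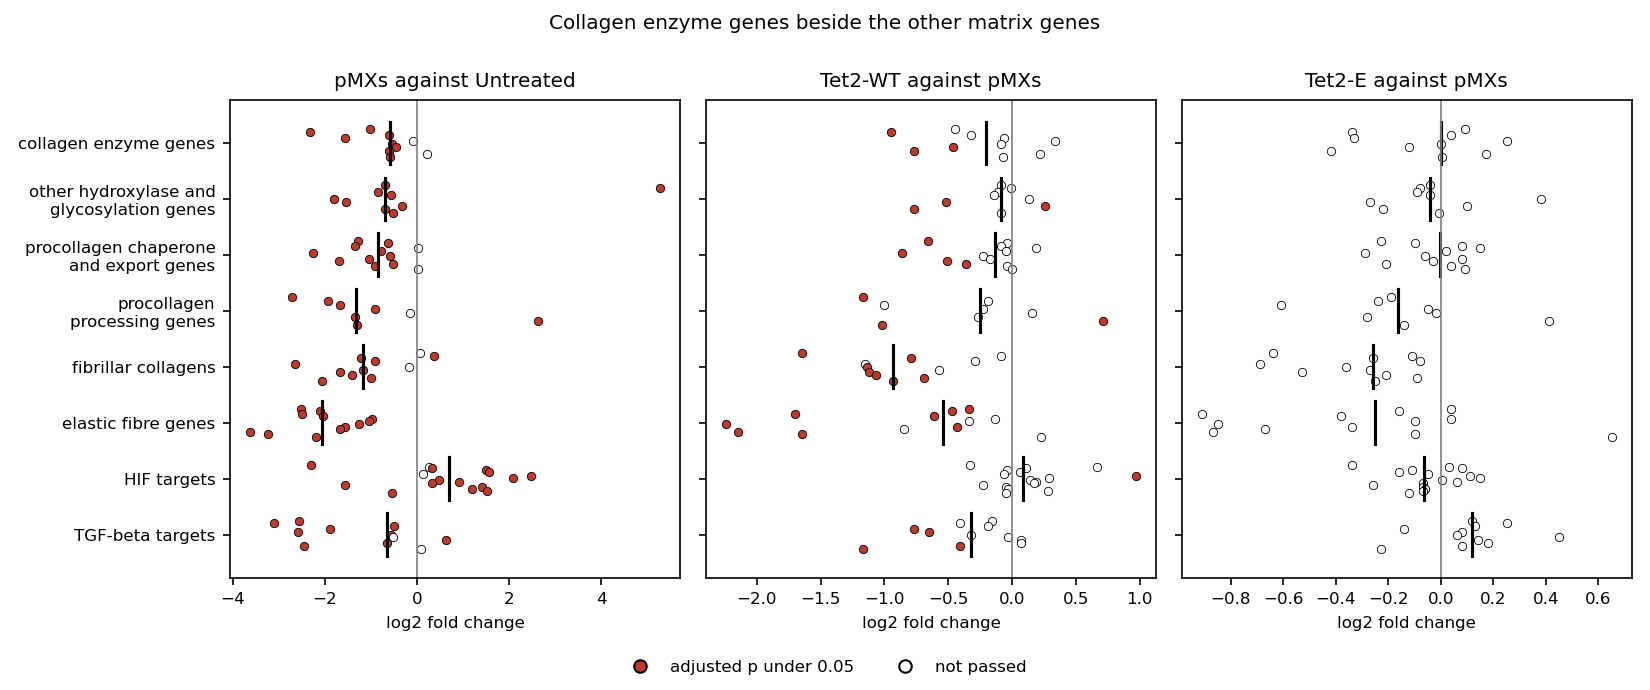
Log2 fold change of each tested gene in the lists of collagen genes and their regulators, in pMXs against Untreated, Tet2-WT against pMXs and Tet2-E against pMXs; each point is a gene, filled points passed an adjusted p of 0.05, the thick line is the list's median, and the panels have different scales. Fibrillar collagen genes had a median of -1.17 in pMXs against Untreated, -0.93 in Tet2-WT against pMXs and -0.26 in Tet2-E against pMXs.

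Known targets of hypoxia-inducible factors among these enzymes include Lox, Plod2 and P4ha1, and 16 targets outside them were followed. Of these, 11 rose and 3 fell in pMXs against Untreated, with a median log2 fold change of 0.70. Pdk1, a kinase that restrains pyruvate dehydrogenase, had a log2 fold change of 1.42, the oxygen sensor gene Egln3 2.47, and Adm, which encodes adrenomedullin, -2.30 (edgeR adjusted p = 1.11e-10, 4.91e-09 and 1.61e-09). Egln3 was also the 1 gene of the 16 that passed in Tet2-WT against pMXs, with a log2 fold change of 0.97 (adjusted p = 0.000692, edgeR). Of 11 TGF-beta targets, 8 fell and 1 rose in pMXs against Untreated, where 70.1% of all tested genes were called, and 4 fell in Tet2-WT against pMXs. Acta2, smooth muscle actin, had a log2 fold change of -2.55 in pMXs against Untreated (adjusted p = 4.46e-11, edgeR). Tgfbi had -1.17 and Itga11, a subunit of a collagen-binding integrin, -0.77 in Tet2-WT against pMXs (edgeR adjusted p = 4.7e-06 and 6.03e-05).

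The lysyl oxidases need copper and the hydroxylases ascorbate, and 5 genes of their supply were followed. The vitamin C transporter gene Slc23a2 rose in Tet2-WT against pMXs, with a log2 fold change of 0.50 (adjusted p = 0.000616, edgeR), and the other 4 did not pass. Between pMXs and Untreated 2 rose and 1 fell, 3 of 5 against the 70.1% called over all tested genes. The copper importer gene Slc31a1 rose, with a log2 fold change of 0.43 (adjusted p = 0.000177, edgeR). The gene that fell was Atp7a, a copper pump (log2 fold change -0.33, adjusted p = 0.0407, edgeR), and its call was lost without Untreated replicate 2 (0.14) or 100 (0.174) and without pMXs replicate 100 (0.166) or 250 (0.0692).

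Markers of cell types moved with the groups. The summed level of 10 fibroblast markers, none of them at 0, ran from 1398 to 1490 CPM in Tet2-WT. It ran from 1698 to 1864 CPM in Tet2-E, 1832 to 1921 CPM in pMXs and 5253 to 5529 CPM in Untreated. Loxl1, Plod1 and P4ha2 had their group means in that same order of groups. So did P4ha1, which was not called in Tet2-WT against pMXs, with 238 CPM in Tet2-E and 239 CPM in pMXs. For Loxl1, Plod1 and P4ha2 all of this order but the place of Tet2-E followed from their calls. Other genes with this order were not counted. In Tet2-WT against pMXs 3 of these markers fell and 1 rose, and in pMXs against Untreated all 10 fell. The summed level of 10 epithelial markers ran from 231 to 345 CPM in Tet2-WT, 256 to 315 CPM in Tet2-E, 322 to 411 CPM in pMXs and 2.91 to 4.23 CPM in Untreated, where Ocln was at 0. Cdh1 made up most of that sum, with 234 CPM in Tet2-WT and 305 CPM in pMXs on average. By gene, 8 of the 10 were higher in Tet2-WT than in pMXs, with a median log2 fold change of 0.25, and Krt8 (1.08) and Krt18 (1.77) rose while none fell (edgeR adjusted p = 0.00224 and 0.000238).

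The summed level of 8 macrophage markers ran from 214 to 311 CPM in Tet2-WT, 94.4 to 128 CPM in Tet2-E, 82.1 to 95.8 CPM in pMXs and 4.19 to 4.54 CPM in Untreated. Laptm5 made up most of that sum at day 5, averaging 251 CPM in Tet2-WT, 96.1 CPM in Tet2-E and 80.0 CPM in pMXs. It averaged 0.263 CPM in Untreated. Of the 5 tested macrophage markers, 3 rose and 1 fell in pMXs against Untreated, and 4 rose in Tet2-WT against pMXs. The 1 that fell was Csf1r, with a log2 fold change of -2.61 (adjusted p = 5.23e-05, edgeR). Its level was low, on average 0.165 CPM in pMXs and 1.09 CPM in Untreated. Adgre1 was at 0 in Tet2-WT, where Ptprc averaged 0.0156 CPM and Aif1 0.0281 CPM. Adgre1, Ptprc and Aif1 were at 0 in pMXs. The summed level of 7 endothelial markers ran from 78.4 to 88.0 CPM in Tet2-WT, 81.5 to 91.5 CPM in Tet2-E, 76.5 to 89.6 CPM in pMXs and 24.8 to 29.0 CPM in Untreated. Tek rose in pMXs against Untreated and averaged 73.9 CPM in pMXs and 3.34 CPM in Untreated. Kdr rose as well (log2 fold change 1.09, adjusted p = 0.0259, edgeR), a call lost without Untreated replicate 1 (0.114) or pMXs replicate 2 (0.142). Flt1 (-1.93) and Esam (-2.23) fell there (edgeR adjusted p = 3.74e-08 and 0.000153), and Esam averaged only 0.452 CPM in pMXs and 2.15 CPM in Untreated. The 5 tested markers had a median log2 fold change of -0.94. The 10 pluripotent cell markers summed to 18.0 to 31.4 CPM in Tet2-WT, 30.4 to 36.9 CPM in Tet2-E, 29.8 to 41.9 CPM in pMXs and 1.36 to 3.12 CPM in Untreated. The part of these differences in the values of the collagen enzymes was not tested.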

How the data were processed

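Bulk RNA-seq of 13 libraries was analysed from the deposited table of raw read counts per gene. The authors' read counts came from STAR 2.6.1a, mm9 and featureCounts 1.6.2, per the submitters' processing notes, and the strand setting is not given in the sources used here. Exons of Lox, Loxl2, Loxl3, Plod2 and Plod3 overlap genes on the opposite strand in GENCODE M21, so reads of such pairs could be mixed if strand was not used.

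Counts were tested in R 4.3.3 with edgeR 4.0.16: filterByExpr (count minimum 10, total minimum 15), TMM scaling and 1 robust quasi-likelihood fit of the 4 group means, with Benjamini-Hochberg adjustment over 14607 genes. SE is the absolute log2 fold change divided by the square root of F. The biological coefficient of variation was 0.102. Replicates differed by more than counting error (chi-square per degree of freedom 6.63 to 42.9). Levels are CPM with TMM-scaled library sizes, and levels per kb divide by the GENCODE M21 exon union.

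Replicate numbers were checked by the correlation of deviations from group means. Same-numbered day 5 libraries had r of 0.12 to 0.34 in 8 pairs, and with Untreated -0.04 to 0.17 in 7 pairs. The replicate block was fitted over all 13 libraries, so Untreated libraries entered it although their numbers did not pair them. Day 5 libraries of other numbers had r of 0.08 to 0.36 within the sets 1 and 2 or 100 and 250, as high as with the same number, and -0.42 to -0.05 between the sets. The labels do not say what a number marks. Alternatives were RLE scaling, other filters, a replicate block, a term for the replicate numbers, within-number fits, fits of the compared groups alone, DESeq2 1.42.0 and each library left out.

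The enzymes and the 13 other gene lists were chosen with earlier results of these data known. Genes named from a list were, per comparison, up to 3 that rose and 3 that fell with the smallest p and at least 1 CPM in a group, of which the text gives some. Promoter sequences are from RefSeq (GRCm38.p6), which matched 5 of the 10 genes, and 2 are shown.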

Additional observations from a re-analysis of the deposited data

Results flagged for a closer look

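In the 4 Tet2-E libraries, P4ha2 had 1 value far from the others: replicate 2 was at 77.1 CPM, while replicates 1, 100 and 250 lay between 91.2 and 93.4 CPM. The gap to its nearest neighbour took up 0.862 of the group's whole range. Tet2 in the same group was also lowest in 1 library by a wide gap, with 581 CPM in replicate 100 against 1299 to 1403 CPM in the others, a gap of 0.873 of the range. Without Tet2-E replicate 2 no call of P4ha2 was lost. Some such gaps arise by chance in groups of this size.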

How the results depend on the processing

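With the replicate block (fitted over all 13 libraries), 5 of the 10 enzyme genes were called in Tet2-WT against pMXs, where 3 were reported. In Tet2-WT against Tet2-E the block called 4, where 2 were reported. A term for replicates 1 and 2 against 100 and 250 gave 6 and 4. Replicates 1 and 2 alone gave 4 against Tet2-E, and so did DESeq2. With 1 library left out the count for Tet2-WT ran from 2 to 4 against pMXs and from 1 to 3 against Tet2-E. That of pMXs against Untreated ran from 7 to 8 around 8, and that of Tet2-E against pMXs stayed at 0. In pMXs against Untreated the block added Plod2 (log2 fold change 0.29, adjusted p = 0.0372), although the numbers did not pair Untreated libraries. For Plod1 in Tet2-WT against pMXs, the adjusted p was 0.0818 with no filter and 0.0644 with only those groups fitted. Lox (-0.46, adjusted p = 0.012) and Loxl2 (-0.33, adjusted p = 0.0293) passed in that last fit. The cause of these shifts was not tested.

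Over all genes, the count in Tet2-E against pMXs was 7, against 17 with no filter, 93 with the block, 152 with the term for the numbers, 103 and 83 within replicates 1 and 2 and within 100 and 250, 0 with only those groups, 141 with DESeq2 and 1 to 50 with 1 library left out, 50 being without Tet2-E replicate 100. In Tet2-WT against Tet2-E it was 675, against 965 with the block, 1052 with the term and 1015 within replicates 1 and 2. DESeq2 gave 896 there, and runs with 1 library left out gave 335 to 675. In Tet2-WT against pMXs the count was 1830, against 1904 with the block and 2060 with the term. It ran from 1097 to 1821 with 1 library left out. The median r between enzyme genes was 0.26 at day 5 and 0.78 over all 13 libraries.

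Signs turned only for genes that were not called. In pMXs against Untreated, the log2 fold change of Loxl4 was 0.04 with the block, 0.02 with the term and 0.0043 within replicates 100 and 250, where Plod2 was at -0.06 and Tet2 at -0.27, and that of Tet2 ran from -0.13 to 0.19 with 1 library left out. In Tet2-WT against pMXs, Loxl3 was at 0.03 with the term, 0.16 within replicates 1 and 2, 0.02 within 100 and 250 and -0.20 to 0.04 with 1 library left out, and Plod3 at 0.0056 within replicates 1 and 2. In Tet2-E against pMXs, Lox was at -0.17 within replicates 100 and 250 and -0.06 to 0.19 with 1 library left out. Loxl2 was at -0.0056 with the block, -0.06 within replicates 100 and 250 and -0.05 to 0.11 with 1 library left out. Plod3 was at -0.02 with the block, -0.0023 with the term, -0.03 within replicates 100 and 250 and -0.03 to 0.02 with 1 library left out. P4ha1 was at 0.00011 with RLE scaling, 0.10 within replicates 1 and 2 and -0.05 to 0.03 with 1 library left out. Within replicates 1 and 2 of that comparison, Flt1 was at 0.13, Slc23a1 at -0.04 and Utf1 at 0.02. In Tet2-WT against Tet2-E, Plod2 was at -0.06 within replicates 1 and 2 and -0.01 to 0.13 with 1 library left out, and Tet2 at -0.19 and -0.15 to 0.18 in the same settings.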
